A study of Homo sapiens with 42 samples.

Results

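The RNA of 8 genes was followed across a panel of HAP1 cells: 7 regulators of the blood lineage (LYL1, TAL1, GATA2, LMO2, FLI1, MYB and KIT) and GTSF1, a gene of the germ line. They are 8 of the 20515 entries with a gene symbol in the deposited matrix of normalized read counts. Several were picked because they differed from wt in media, so their media values are given as a description and carry no test. Tests were run on the libraries given buthionine sulfoximine (BSO), on the change with BSO, and between the sets of wt libraries. A gene was tested where its mean across the 42 libraries was at least 10. This was reached by 7 of the 8 genes, among 14331 such genes, and LMO2 did not reach it.

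HAP1 is a human line that grows attached and descends from a chronic myeloid leukemia line. RNA was profiled in 42 libraries: wild-type cells (wt) and cells labelled as deficient for the DNA glycosylase NEIL1 (neil1), NEIL2 (neil2), NEIL3 (neil3) or for all of these together (neil123). Each genotype was kept in media or exposed to 200 µM BSO for 48 h, begun after 4 h. NEIL enzymes cut oxidized bases out of DNA, and BSO blocks the first step of glutathione synthesis. Each treatment has 7 libraries of wt, 3 of neil1, 3 of neil2, 4 of neil3 and 4 of neil123. Sample names form an unlettered set (wt 1.1, 1.3 and p1, neil1 rep12, rep13.1 and rep13.2, neil2 rep11.1, rep11.2 and rep12) and a set with a final A or B (wt 1.1 and 1.3, neil3 1 and 2, neil123 1 and 2, each as A and B). Every knockout was compared with the wt libraries of its own set, so neil1 and neil2 share their controls, and so do neil3 and neil123. The name without its letter, and without the part after the point in neil1 and neil2, is taken here as the name of a line. Each knockout then rests on 2 lines, libraries of one line are not independent, and the p-values measure the spread between these libraries only. Below, the values of a group follow the order of the names just given, with A before B within a line.

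The libraries held 27.2 M to 30.9 M reads each, with the lettered set below the unlettered one (30.2 M to 30.9 M). Both partners of the fusion gene of the parent leukemia were read in every library, BCR at 705 to 1058 and ABL1 at 557 to 1316 normalized reads. The blood cell markers were mixed. PTPRC (CD45), SPN, CD53, VAV1 and LAPTM5 each had a median of 0 over the 42 libraries, whereas CORO1A (median 317, lowest 232), ITGA2B (171, 67.5 to 309) and WAS (54.9, 32.4 to 96.6) were read in every library, HBA1 had a median of 30.1, and CD34 reached 716. The endothelial markers were mixed too: PECAM1, CDH5 and EMCN had a median of 0, ESAM one of 195 (147 to 260.1), and VWF and TEK reached 17.02 and 20.7. The summed level of the 18 blood cell markers in the table (of 26 listed), to which CORO1A and ITGA2B add most by their medians, lay at 584 to 796 normalized reads in wt, 553 to 683 in neil123, 624 to 785 in neil3, 616 to 900.4 in neil2 and 600.4 to 1354 in neil1. Within the sums of neil1, CD34 had 538 to 716 in line 12 and 46.8 to 78.1 in line 13. The part of the summed level in the results was not tested. VIM (11763 to 22134 normalized reads) and the neural-type gene SOX2 (22350.3 to 42427) were high throughout. The other neural-type genes were lower, NES at 2073 to 9399, PAX6 at 46.9 to 351 and TUBB3 at 75.0 to 141. Epithelial genes were mixed: KRT8 had 355 to 7551, KRT18 1323 to 3311, EPCAM 3.05 to 258 and CDH1 0 to 7.59. Of the targeted genes, NEIL2 was lower than in every wt library of the set in all libraries of neil2 (239.9 to 328 against 487 to 613 normalized reads) and of neil123 (170.1 to 242 against 338 to 425). NEIL3 in neil123 (381 to 542 against 589.7 to 671) was also lower, whereas NEIL3 in neil3 (409.6 to 714) and NEIL1 in neil1 (284 to 541 against 293 to 403) and in neil123 (774 to 1127 against 774 to 975) overlapped wt. The RNA therefore does not check the loss of NEIL1 or the neil3 label.

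TAL1 and LYL1 are closely related basic helix-loop-helix factors that bind DNA as partners of E proteins such as TCF3. In blood stem cells and early red cells they sit in a complex in which LMO2 is the bridge and a GATA factor such as GATA2 binds beside them. FLI1 is an ETS factor of megakaryocytes, endothelium and stem cells, MYB keeps blood progenitors dividing, and KIT is the receptor tyrosine kinase for stem cell factor. GTSF1 is a small zinc-finger protein that binds PIWI proteins, which silence transposons in the germ line with the help of piRNAs.

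The stretches of 250 bases upstream of the annotated start are shown for the members that passed the test under BSO in at least 1 knockout, because these are the genes whose RNA the comparisons below turn on. They come from RefSeq (GRCh38.p14), whose table matched 6 of the 8 members, not FLI1 and LMO2. The windows are chr19:13102859-13103108 for LYL1, chr1:47232336-47232585 for the first start of TAL1 and chr12:54473603-54473852 for GTSF1, all on the minus strand, and chr6:135181058-135181307 for MYB and chr4:54657707-54657956 for KIT on the plus strand. Each is written 5′ to 3′ in the direction of transcription, with matches to the GATA letters (AGATAA or TGATAA) and the ETS letters (CCGGAA) on either strand in capitals.
LYL1: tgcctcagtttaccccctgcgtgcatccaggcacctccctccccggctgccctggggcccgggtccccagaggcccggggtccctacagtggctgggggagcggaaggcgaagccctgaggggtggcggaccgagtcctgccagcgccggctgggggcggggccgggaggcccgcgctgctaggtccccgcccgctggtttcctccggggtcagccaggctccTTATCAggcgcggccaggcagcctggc
TAL1: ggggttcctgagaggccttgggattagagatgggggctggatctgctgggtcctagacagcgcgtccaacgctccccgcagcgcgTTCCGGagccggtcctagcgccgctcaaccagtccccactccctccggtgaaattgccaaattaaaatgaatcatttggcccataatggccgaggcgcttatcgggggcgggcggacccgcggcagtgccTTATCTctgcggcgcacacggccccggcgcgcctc
MYB: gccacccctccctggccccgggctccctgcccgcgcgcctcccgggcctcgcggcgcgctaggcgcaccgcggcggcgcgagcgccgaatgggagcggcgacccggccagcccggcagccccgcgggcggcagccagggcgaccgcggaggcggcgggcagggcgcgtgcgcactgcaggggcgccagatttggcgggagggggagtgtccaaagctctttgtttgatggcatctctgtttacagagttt
KIT: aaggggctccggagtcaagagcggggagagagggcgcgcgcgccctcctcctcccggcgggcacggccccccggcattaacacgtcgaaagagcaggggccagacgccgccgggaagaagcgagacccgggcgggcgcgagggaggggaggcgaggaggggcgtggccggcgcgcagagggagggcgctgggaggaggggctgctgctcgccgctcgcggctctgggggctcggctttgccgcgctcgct
GTSF1: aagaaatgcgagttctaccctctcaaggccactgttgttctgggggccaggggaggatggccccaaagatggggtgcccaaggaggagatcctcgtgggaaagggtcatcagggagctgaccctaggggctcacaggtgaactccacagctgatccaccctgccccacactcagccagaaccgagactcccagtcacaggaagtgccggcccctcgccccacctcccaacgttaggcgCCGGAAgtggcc

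LYL1 had 1 GATA match, 27 to 22 bases before its start (TGATAA on the other strand). The first start of TAL1 had 1 GATA match at 35 to 30 bases (AGATAA on the other strand), 1 ETS match at 165 to 160 bases and 1 E-box (CANNTG). GTSF1 had 1 ETS match at 12 to 7 bases and 2 E-boxes, while the windows of MYB and KIT held none of these letters and no RUNX letters (TGTGGT or TGCGGT). The window of the second start of TAL1, not shown, had RUNX matches at 188 to 183, 150 to 145, 90 to 85 and 56 to 51 bases. Of all windows, 1.63% held 2 or more RUNX matches. Over 35116 windows of the same length, 14.6% held a GATA match, 14.5% an ETS match, 61.8% an E-box and 16.3% a RUNX match. The windows shown differed in CpG content: 34 CpG dinucleotides in MYB and in KIT, 24 in TAL1, 19 in LYL1 and 8 in GTSF1, against a median of 11 over all windows. A match is only a match of letters.

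Per kilobase of exon, the order in wt cells in media was GTSF1 (a median of 832 normalized reads per kb over 7 libraries), GATA2 (479.9), TAL1 (199), KIT (85.7), MYB (47.4), LYL1 (17.99), FLI1 (2.38) and LMO2 (1.26). HAP1 cells therefore carried much RNA of GATA2 and TAL1 and next to none of LMO2, which lies between them in the complex. In media LMO2 had 3.83, 4.71 and 10.7 normalized reads in unlettered and 0, 3.92, 8.09 and 0.985 in lettered wt, and it stayed between 0.973 and 8.96 in every knockout library of both treatments. A value near 1 is a single read, so LMO2 was too low to compare at this depth and was not tested. In bulk RNA, fewer cells expressing a gene and less RNA per cell cannot be told apart.

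**Figure D1:**
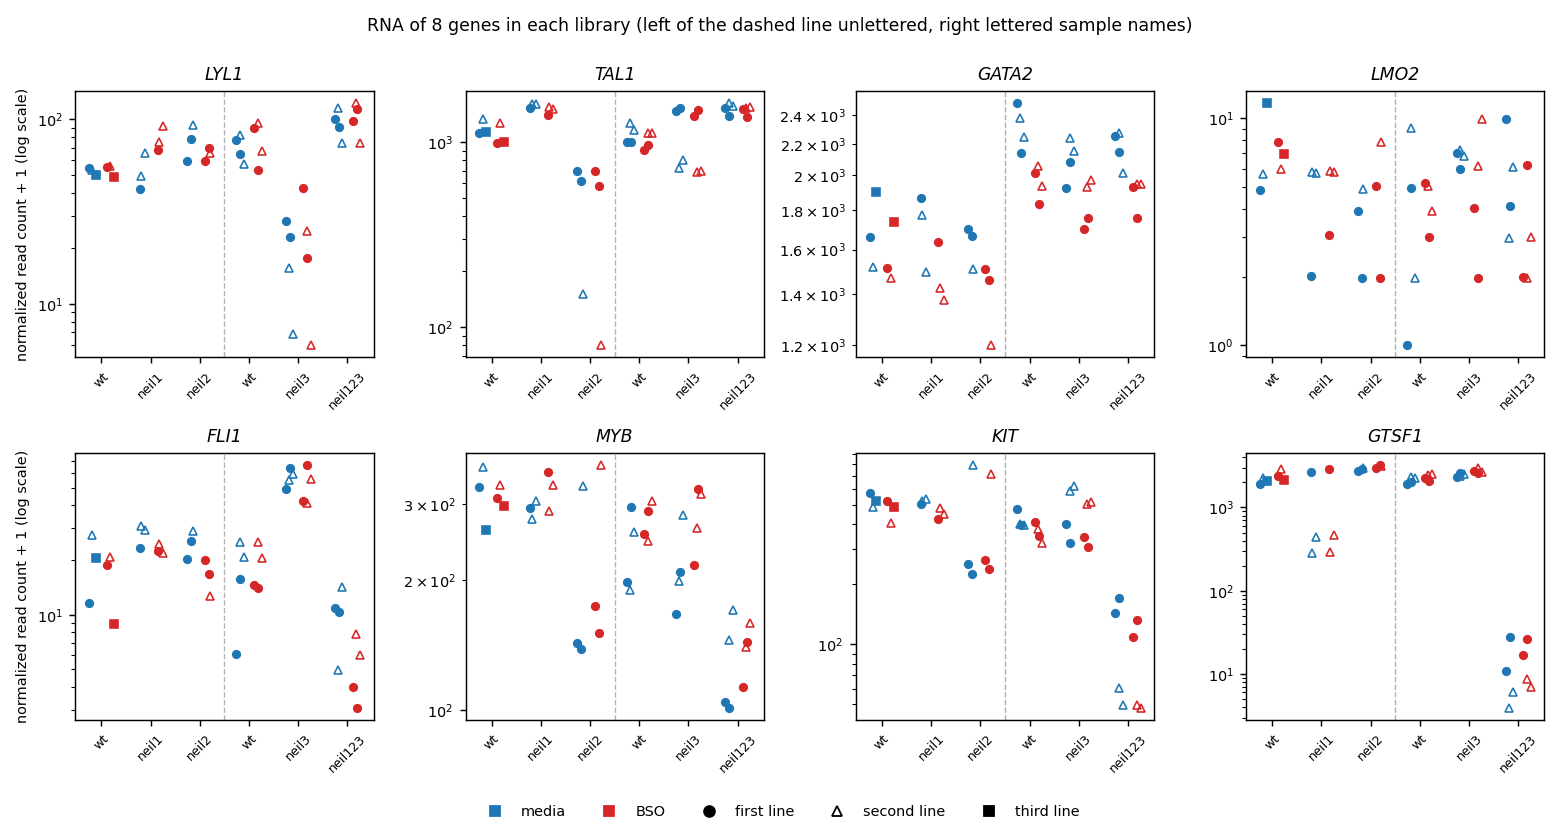
Normalized read count plus 1 (log axis) of the 8 genes in each of the 42 libraries, by genotype, with media in blue and BSO in red; circles, triangles and squares are the lines of a genotype in the order of their names, and the dashed line parts the sample-name sets. GTSF1 and KIT lie lowest in neil123, LYL1 lies lowest and FLI1 highest in neil3, and TAL1 lies lowest in line 12 of neil2.

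Under BSO, 4 of the 7 members tested fell in neil123 (GTSF1, KIT, FLI1 and MYB), 1 fell (LYL1) and 1 rose (FLI1) in neil3, 1 fell in neil2 (TAL1) and 0 passed in neil1 (limma, Benjamini-Hochberg adjusted p over 14331 genes under 0.05). The share of all genes called, in either direction, was 8.09% in neil123 (3.57% lower), 0.405% in neil3 (0.209% lower and 0.195% higher), 15.8% in neil2 (8.43% lower) and 0.202% in neil1. In neil1, 1 member had an unadjusted p under 0.05 with limma and with edgeR, and neither called it. DESeq2 gave p-values for 6 of the 7 members, not for GTSF1, and had 0 of the 6 under 0.05. The libraries did not overlap those of wt for 5 of 7 members in neil123 (16.8% of all genes), 3 of 7 in neil3 (3.78%), 3 of 7 in neil2 (34.1%) and 3 of 7 in neil1 (14.3%). The median log2 difference of the 7 members was -0.98 in neil123, 0.02 in neil3, -0.18 in neil2 and 0.05 in neil1, against medians between -0.002 and 0.01 over all genes. In media, which served to choose several of them, the libraries did not overlap for 4 of 7 in neil123 (12.9% of all genes), 2 of 7 in neil3 (3.85%), 3 of 7 in neil2 (28%) and 1 of 7 in neil1 (15.2%). The BSO libraries are of the same lines, so a difference of a line shows in both treatments. The counts, medians and p-values of the members under BSO are therefore not independent of that choice.

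**Figure D2:**
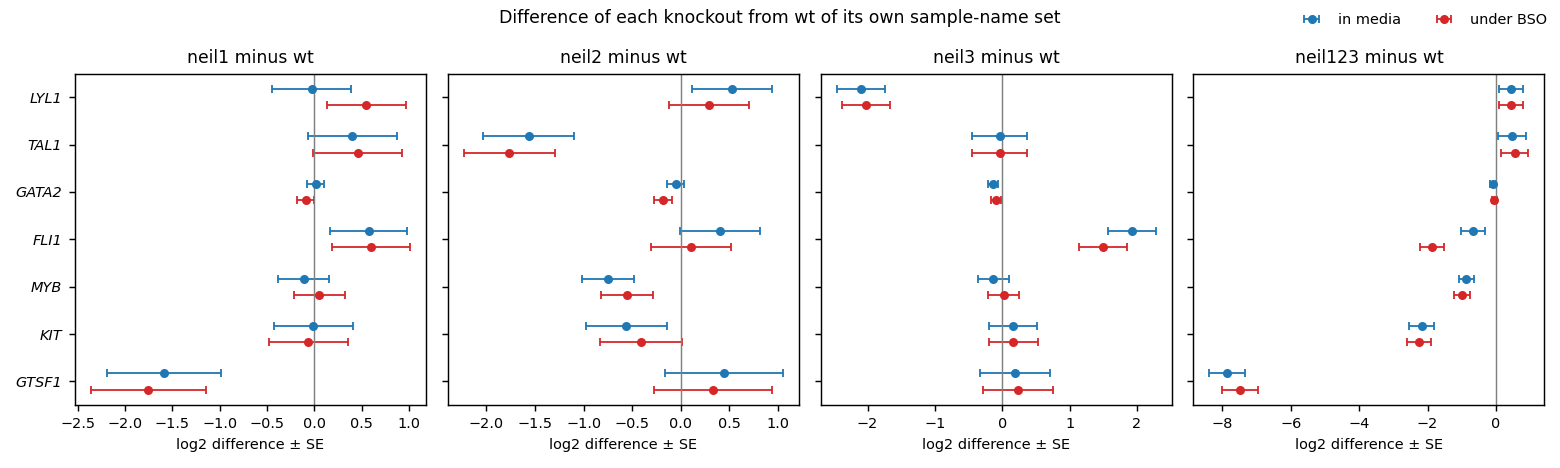
Log2 difference ± standard error of each knockout from wt of its own set for the 7 members tested, in media (blue, description only) and under BSO (red); each panel has its own scale. In neil123 GTSF1 lies at -7.85 in media and -7.50 under BSO and KIT at -2.17 and -2.25. In neil3 LYL1 lies at -2.10 and -2.02 and FLI1 at 1.92 and 1.49.

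LYL1 was lowest in neil3, where its RNA stood at 0.251 of the wt mean in media and 0.288 under BSO. In lettered wt it had 76.4, 63.7, 80.9 and 56.1 normalized reads in media and 88.5, 51.9, 94.6 and 66.05 under BSO. In neil3 it had 27.2, 21.98, 14.6 and 5.83 in media and 41.3, 16.7, 23.8 and 4.96 under BSO. Every neil3 library lay below every wt library of its set and treatment, and library 2B was the lowest in both treatments. The means under BSO were 21.7 ± 15.2 (SD, n = 4) against 75.3 ± 19.8 (SD, n = 4), a log2 difference of -2.02 ± 0.36 (limma adjusted p = 0.0017); in media the difference was -2.10 ± 0.36. The call ended when only these groups were fitted (adjusted p = 0.225) and without wt line 1.1 (0.0708) or 1.3 (0.152).

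In neil123 LYL1 had 98.6, 90.1, 114 and 73.2 in media and 96.1, 113, 122 and 73.4 under BSO. These values overlapped wt, with a log2 difference under BSO of 0.43 ± 0.36 (adjusted p = 0.539). Unlettered wt had 53.7, 51.8 and 48.6 in media and 54.1, 54.5 and 47.5 under BSO, neil1 40.8, 48.2 and 64.5 and then 66.7, 74.2 and 90.6, and neil2 58.1, 77.2 and 91.9 and then 58.4, 69.1 and 64.3. Under BSO all libraries of neil1 and neil2 lay above wt, but neither difference passed (0.55 ± 0.41, adjusted p = 0.704, and 0.29 ± 0.41, adjusted p = 0.675).

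TAL1, the relative of LYL1, was lowest in neil2 and differed between the lines of that genotype. Unlettered wt had 1122, 1323 and 1132 normalized reads in media and 991, 1261 and 997 under BSO. In neil2 libraries rep11.1, rep11.2 and rep12 it had 700.3, 612 and 149.9 in media and 694, 575 and 78.95 under BSO. All neil2 libraries lay below wt, line 12 far below line 11. The log2 difference under BSO was -1.76 ± 0.47 (adjusted p = 0.0105; -1.57 ± 0.47 in media). Leaving out line 11 gave -3.75. Leaving out line 12 gave -0.77 and kept the call, but that fit rests on line 11 alone and describes that line. The call ended without the BSO library of line 12 (-0.77). It also ended without wt line 1.3 (adjusted p = 0.0649) and when only these groups were fitted (0.146).

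In neil1 TAL1 had 1526, 1599 and 1595 in media and 1394, 1545 and 1501 under BSO, above every wt library of the set, yet the difference did not pass (0.46 ± 0.47, adjusted p = 0.809). In neil3 the lines stood on either side of wt: lettered wt had 995, 995, 1259 and 1161 in media, whereas neil3 had 1469, 1531, 726 and 799.6. Line 1 was above wt and line 2 below it, and under BSO the same held (1376, 1483, 685 and 697 against 909, 959, 1113 and 1124; -0.04 ± 0.41). In neil123 TAL1 had 1527, 1375, 1628 and 1565 in media and 1515, 1368, 1535 and 1541 under BSO, above all wt libraries of the set in both treatments, with a difference under BSO of 0.54 ± 0.41 (adjusted p = 0.487).

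GATA2, the zinc-finger factor that keeps blood stem cells, did not pass in any knockout under BSO. Unlettered wt had 1513, 1469.8 and 1737, neil1 1638, 1424 and 1373 and neil2 1509.9, 1459 and 1199 normalized reads under BSO. Lettered wt had 2015, 1833, 2057 and 1938, neil3 1703, 1757, 1929.7 and 1973 and neil123 1931, 1759, 1951 and 1949. The groups overlapped in both sets, and the largest of the 4 log2 differences was -0.18 ± 0.09 in neil2 (adjusted p = 0.167). In media the values were 1658, 1517 and 1899 in unlettered wt, 1865, 1775 and 1496 in neil1 and 1699.9, 1666 and 1509.6 in neil2. They were 2487, 2139.8, 2373 and 2243 in lettered wt, 1923, 2079, 2239.9 and 2149 in neil3 and 2251, 2143, 2270.4 and 2016 in neil123. GATA2 also differed between the wt sets: under BSO the lettered wt libraries lay above all unlettered ones by 0.32 ± 0.08 (adjusted p = 0.00247). It was the 1 member of 7 called between the wt sets, where 42.8% of all genes were called, and the call ended without line 1.3 (0.25, adjusted p = 0.119).

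FLI1, the ETS factor, had few reads and was highest in neil3. Lettered wt had 5.09, 14.7, 24.3 and 19.7 normalized reads in media and 13.5, 12.98, 24.2 and 19.4 under BSO. In neil3 it had 48.3, 62.9, 54.2 and 58.3 in media and 41.3, 65.7, 40.4 and 54.6 under BSO. All neil3 libraries lay above all wt libraries of the set. Under BSO the means were 50.5 ± 12.02 (SD, n = 4) and 17.5 ± 5.29 (SD, n = 4), a log2 difference of 1.49 ± 0.36 (adjusted p = 0.0481; 1.92 ± 0.36 in media). This call sat at the threshold: it was lost in 15 of 24 alternatives, among them 7 of 8 that left out 1 library, with adjusted p between 0.000878 and 1 and the direction kept in all of them.

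In neil123 FLI1 had 9.96, 9.32, 3.95 and 13.22 in media, overlapping wt (-0.66 ± 0.36). Under BSO it had 3.004, 2.09, 6.81 and 5.03, below every wt library, with a log2 difference of -1.87 ± 0.36 (adjusted p = 0.00074). The call ended without neil123 line 1 (-1.39, adjusted p = 0.0660) and with 1 mean per line (0.0777). FLI1 in neil123 rested on 2.09 to 13.22 normalized reads a library, so counting error weighs on it. In the unlettered set FLI1 did not pass: under BSO wt had 17.7, 19.8 and 7.92, neil1 21.5, 23.4 and 20.99 (0.60 ± 0.41, adjusted p = 0.664) and neil2 19.1, 15.8 and 11.7 (0.10 ± 0.41, adjusted p = 0.898). In media the values were 10.5, 26.4 and 19.4 in wt, 22.4, 29.9 and 28.5 in neil1 and 19.4, 24.4 and 28.05 in neil2.

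MYB, the factor of dividing progenitors, was lowest in neil123. Lettered wt had 197, 294, 189 and 258 normalized reads in media and 254, 288, 246 and 304 under BSO. In neil123 it had 104, 100.4, 144 and 169.9 in media and 112, 143, 139 and 158 under BSO. No neil123 library reached the lowest wt library of its treatment. The means under BSO were 138 ± 19.02 (SD, n = 4) against 273 ± 27.6 (SD, n = 4), a log2 difference of -0.98 ± 0.23 (adjusted p = 0.00593; -0.86 ± 0.23 in media). The call ended with 1 mean per line (0.193) and without neil123 line 1 (0.0805), wt line 1.1 (0.0834) or wt line 1.3 (0.102).

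In neil2 the lines differed in MYB. Libraries rep11.1, rep11.2 and rep12 had 142, 138 and 329.8 in media and 173, 150.1 and 368 under BSO, against 327, 365 and 261 and 309.7, 331 and 296 in wt. Line 11 lay below all wt libraries, and line 12 was within their range in media and above it under BSO. The difference under BSO did not pass over both lines (-0.55 ± 0.27, adjusted p = 0.155) and passed without line 12 (-0.95, adjusted p = 0.0015). That fit was added after the values were seen and rests on line 11 alone, so it describes that line and not the knockout. In neil1 (294, 277 and 304 in media, 356, 288 and 332 under BSO) and in neil3 (166, 208, 198 and 283 in media, 216, 324, 263 and 316 under BSO) MYB overlapped wt and did not pass (log2 differences under BSO of 0.05 ± 0.27 and 0.02 ± 0.23).

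KIT, the receptor, fell in neil123 under BSO and was lower there in both lines. Lettered wt had 477, 398, 399.7 and 395 normalized reads in media and 411, 349, 379 and 321 under BSO. In neil123 it had 142, 171, 59.2 and 48.8 in media and 108, 132, 48.6 and 47.2 under BSO. Line 2 stood below line 1, and both stood below all wt libraries. Under BSO the means were 83.9 ± 42.6 (SD, n = 4) against 365 ± 39.2 (SD, n = 4), a log2 difference of -2.25 ± 0.36 (adjusted p = 8.2e-05; -2.17 ± 0.36 in media). With 1 mean per line the adjusted p was 0.0659, and the other 24 alternatives kept the call.

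KIT followed the lines of neil2 in the same order as MYB, with 253, 225 and 792 in media and 263, 238 and 711 under BSO in libraries rep11.1, rep11.2 and rep12. Unlettered wt had 570.4, 487 and 521 in media and 525, 407 and 488 under BSO, between the values of line 11 and line 12. Over both lines the difference was -0.41 ± 0.42 (adjusted p = 0.539). In neil3 (400.4, 319.7, 588 and 622 in media, 344, 307, 504 and 517 under BSO) line 2 was above all wt libraries and line 1 within or below their range, and the difference was 0.16 ± 0.36. In neil1 KIT had 507, 520.4 and 535 in media and 423, 483 and 448 under BSO, overlapping wt (-0.06 ± 0.42).

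GTSF1, the partner of PIWI proteins, was among the well-expressed genes of wt cells and nearly absent in neil123. Lettered wt had 1919, 2029, 2347 and 2285 normalized reads in media and 2239, 2095, 2453 and 2517 under BSO. In neil123 it had 9.96, 26.9, 2.96 and 5.09 in media and 16.02, 25.1, 7.78 and 6.03 under BSO. Both lines of neil123 were low, and line 2 stayed under 10 in both treatments. The means under BSO were 13.7 ± 8.72 (SD, n = 4) against 2326 ± 194 (SD, n = 4), which is 169.5-fold lower. On the log2 scale with 1 added this was -7.50 ± 0.53 (adjusted p = 7.1e-12), and -7.85 ± 0.53 in media. All 24 alternatives that gave a value kept the call, and DESeq2 gave no adjusted p for GTSF1.

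GTSF1 was also low in 1 line of neil1. Libraries rep12, rep13.1 and rep13.2 had 2679, 281 and 446 in media and 2876, 293 and 467 under BSO, against 1927, 2271 and 2099 and 2419, 2923 and 2147 in wt. Line 13 lay far below wt, and line 12 above it in media and within its range under BSO. Over both lines the log2 difference under BSO was -1.75 ± 0.61 (adjusted p = 0.304), and without line 12 it was -2.74 (adjusted p = 0.00049). The fit without line 12 was added after the values were seen and rests on line 13 alone, so it describes that line and not the knockout. GTSF1 was at wt level or slightly above it in neil2 (2719, 2871 and 2962 in media, 2957, 3228 and 3151 under BSO) and in neil3 (2306, 2571, 2375 and 2494 in media, 2763, 2559.8, 2959.8 and 2643 under BSO). Under BSO the libraries of both lay above wt, with log2 differences of 0.33 ± 0.61 (adjusted p = 0.758) and 0.23 ± 0.53 (adjusted p = 1).

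**Figure D3:**
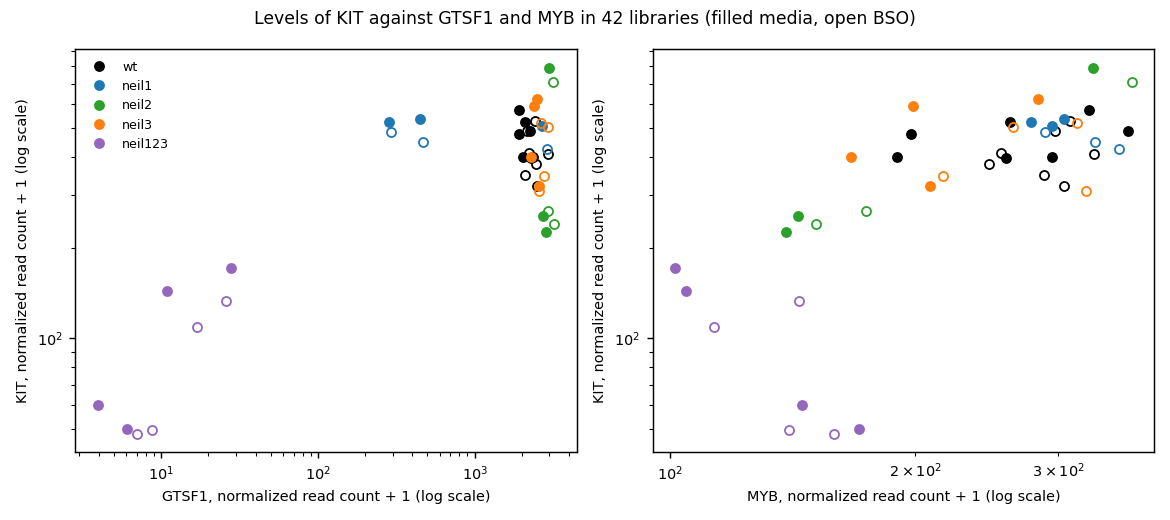
KIT against GTSF1 (left) and against MYB (right) in the 42 libraries, as normalized read count plus 1 on log axes, with filled points for media and open points for BSO. The 8 neil123 libraries lie apart at the lower left for KIT and GTSF1, while the libraries of neil1 line 13 are low in GTSF1 and not in KIT; in the right panel line 11 of neil2 is also low in both genes.

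The members that moved differed between genotypes. Taking each library as its difference from the wt mean of its set and treatment on the log2 scale, Pearson's r over 42 libraries was 0.849 between KIT and GTSF1, 0.711 between MYB and KIT, 0.566 between MYB and GTSF1 and -0.652 between LYL1 and FLI1. Between the related factors LYL1 and TAL1 it was -0.001, and between TAL1 and GATA2 0.280. These are descriptions: the points share lines and libraries, and the 8 neil123 libraries stand apart in KIT and GTSF1.

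With BSO, GATA2 and TAL1 were lower in every pair of libraries. Libraries with the same name in media and BSO were taken as pairs, and GATA2 and TAL1 were each lower with BSO in 21 of 21 pairs, whereas 1.85% of all genes were lower in every pair. KIT was lower in 19 of 21 pairs and GTSF1 higher in 19 of 21, MYB higher in 16, FLI1 lower in 17 and LYL1 higher in 14. The median log2 change over the pairs was -0.21 for GATA2, -0.09 for TAL1, -0.21 for KIT, 0.12 for GTSF1, 0.16 for MYB, -0.22 for FLI1 and 0.07 for LYL1. In TAL1 the pair of neil2 line 12 (-0.92) stood apart from the other pairs, and the smallest change was -0.0069. Several pairs share a line, so the pairs are not independent of one another.

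Without the pairing, limma called 0 of the 7 members between BSO and media in any genotype, while it called 15.7% of all genes in wt, 1.29% in neil1, 0.174% in neil2, 6.64% in neil3 and 1.7% in neil123. At an unadjusted p under 0.05 there was 1 member in each of wt, neil1, neil2 and neil3 and 2 in neil123, also with edgeR and DESeq2. Both of these tools called 1 member in wt, GATA2, and 0 in the knockouts. With the replicate name as a block, GATA2 fell in all 5 genotypes: by 0.17 in wt (adjusted p = 4.7e-05), 0.21 in neil1 (0.00213), 0.23 in neil2 (0.0012), 0.19 in neil3 (0.000548) and 0.19 in neil123 (0.000947) on the log2 scale. The media libraries of this contrast are also those used in choosing members, so it is not independent of that choice. GATA2 overlapped wt in media in every knockout. The shares of all genes called with the block were 36.6% in wt, 11% in neil1, 8.46% in neil2, 24% in neil3 and 11.7% in neil123.

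The other changes that passed with the block are given as values only, because media levels served to choose several of these genes. For KIT they were -0.18 in wt, -0.19 in neil3 and -0.27 in neil123 on the log2 scale. In 1 genotype each they were 0.60 for LYL1 in neil1, 0.40 for MYB in neil3, -0.34 for TAL1 in neil2, -0.94 for FLI1 in neil123 and 0.47 for GTSF1 in neil123. The value of TAL1 was carried by 1 of 3 pairs, which stood at -0.01, -0.09 and, in line 12, -0.92. FLI1 was lower in 3 of 4 pairs and GTSF1 higher in 3 of 4, among values of 2.09 to 13.22 and of 2.96 to 26.9 normalized reads. Whether a knockout changed the response to BSO was tested directly as the difference between its BSO change and that of wt. This difference also holds the media values that served to choose several members, so it is not independent of that choice. Limma, edgeR and DESeq2 called 0 members in each of the 4 differences, with 1 member at an unadjusted p under 0.05 in neil123 and 0 in the others, and the fit with the block also called 0. Of all genes, 0% were called in each of these differences without the block, and with it 2.21% in neil1, 10.4% in neil2, 0% in neil3 and 0.0349% in neil123.

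**Figure D4:**
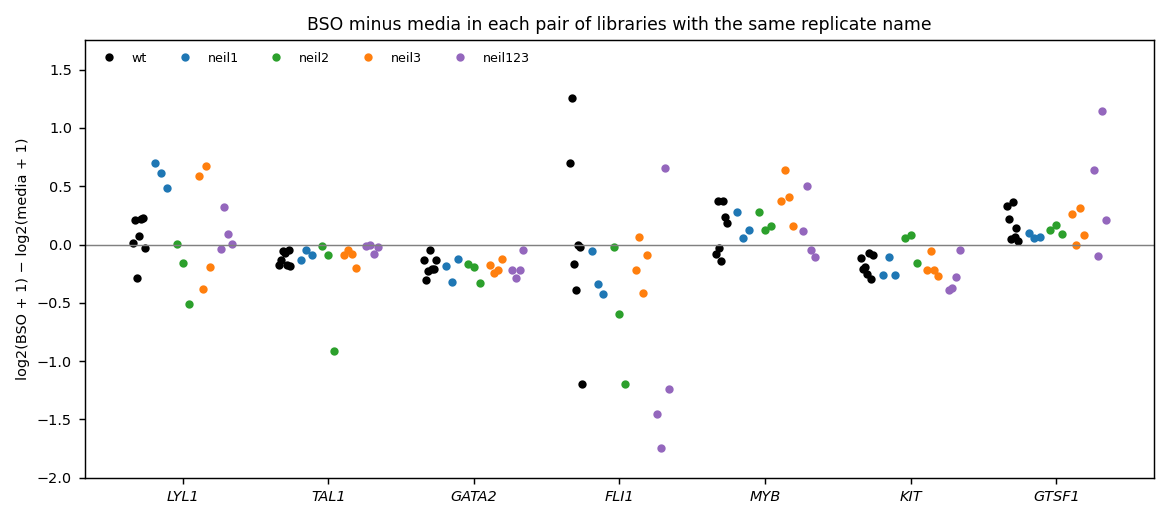
Log2 change from media to BSO in each of the 21 pairs of libraries with the same replicate name, for the 7 members tested, coloured by genotype; the line marks no change. All points of GATA2 and TAL1 lie below the line, GATA2 between -0.33 and -0.046, and FLI1, the least abundant of the 7, has the widest spread.

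The final letter of the sample name went with the level of LYL1 and MYB. In the 12 comparisons of libraries A and B of the same line and treatment, LYL1 was higher in A in 11 and MYB was higher in B in 11, with median log2 differences of 0.58 and -0.31. The pattern was chosen after the values were seen, and 20.6% of all genes showed the same direction in at least 11 of 12. Of the other members, GATA2 was higher in A in 9, KIT in 8, FLI1 in 6, GTSF1 in 5 and TAL1 in 4. With the letter as a block, LYL1 in neil3 (-2.02, adjusted p = 0.000123), FLI1 in neil3 (0.0375) and the 4 members in neil123 kept their calls under BSO, and 0.481% of all genes were called in neil3 and 10.1% in neil123.

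Of 9 other genes of the complex tested (of 10 listed), 1 fell in neil2 and 2 fell in neil123 under BSO, and 0 passed in neil1 and neil3 (1 and 0 at an unadjusted p under 0.05, and 0 with edgeR and DESeq2). Over all genes 15.8% were called in neil2, 8.09% in neil123, 0.202% in neil1 and 0.405% in neil3, so these counts are not a result about the partners. The E protein TCF3 had 7493 to 7786 normalized reads in neil2 against 8835 to 9165 in wt (-0.22 ± 0.05, adjusted p = 0.0059), and without line 11 the p was 0.284. In neil123 the corepressor RUNX1T1 (263 to 298 against 377 to 451; -0.60 ± 0.17, 0.0251) and the E protein TCF12 (3047 to 3269.6 against 3549 to 3777; -0.21 ± 0.05, 0.00636) fell. Both calls ended with 1 mean per line (0.221 for each). The RUNX1T1 call also ended without any 1 of the lines compared (0.0888 to 0.251), and that of TCF12 without neil123 line 2 (0.0735) or wt line 1.3 (0.151). The list's median log2 difference was -0.04 in neil1, -0.05 in neil2, 0.02 in neil3 and -0.07 in neil123.

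Among 25 other blood transcription factors tested (of 35 listed), 7 fell in neil2 and 0 rose, and 0 passed in neil1, neil3 or neil123. Of all genes, 8.43% were called lower in neil2 (1208 genes). At an unadjusted p under 0.05 there were 0, 2 and 6 in these. EdgeR also called 0, and DESeq2 called 0, 0 and 2. The largest drops in neil2 were in IRF8, a factor of myeloid and B cells, MECOM, a factor of blood stem cells, and GFI1, a zinc-finger repressor. IRF8 had 0 to 3.02 normalized reads in line 11 and 80.3 to 82.9 in line 12 over both treatments, against 54.4 to 76.3 in unlettered wt. Its log2 difference was -3.36 ± 1.16 (adjusted p = 0.0447), 0.24 without line 11, and not called by edgeR (0.373) or DESeq2 (0.457), with 1 mean per line (0.285) or without any 1 of the wt lines (0.124 to 0.135). MECOM had 225 to 264 in line 11 and 591 to 669 in line 12 (-1.12 ± 0.26, adjusted p = 0.004; -0.16 without line 11, 0.79), and GFI1 fell by 0.80 ± 0.21 (0.00911; 0.522 without line 11 and 0.0836 without wt line 1.3). Without line 11 the list's count was 0 and that of all genes called lower 86, without line 12 they were 8 and 1512, and with 1 mean per line 3 and 768. The list's median log2 difference was -0.06 in neil1, -0.17 in neil2, -0.01 in neil3 and -0.05 in neil123. IRF8 and MECOM, like KIT and MYB, were lower in line 11 of neil2 than in line 12, and TAL1 was lower in line 12.

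Of 8 relatives and signalling partners of KIT tested (of 10 listed), FLT3, a related receptor with few reads (4.94 to 11.7 in neil2 against 18.8 to 21.6; -1.43 ± 0.38, adjusted p = 0.0105), fell in neil2 and the adaptor SH2B3 (698 to 990.4 against 944 to 1276; -0.43 ± 0.11, 0.0151) fell in neil123. Without neil2 line 11 FLT3 had an adjusted p of 0.607 and without wt line 1.1 one of 0.0571. SH2B3 had 0.167 without neil123 line 2, 0.0585 and 0.205 without wt lines 1.1 and 1.3, and 0.214 with 1 mean per line. Over all genes 15.8% were called in neil2, 8.09% in neil123, 0.202% in neil1 and 0.405% in neil3, so these counts are not a result about the list. The list's median was 0.07, 0.15, 0.07 and 0.06 in neil1, neil2, neil3 and neil123. None of the 8 passed in neil1 or neil3 with limma (1 each at an unadjusted p under 0.05), edgeR or DESeq2. Of 9 blood cell markers tested, the globin gene HBA1 fell in neil2 (9.75 to 25.7 against 27.5 to 64.4; -1.48 ± 0.30, 0.00178), a call kept without each of the 5 lines compared. HBA1 has a near-identical copy, HBA2, so its reads are uncertain. With 15.8% of all genes called in neil2, 1 of 9 is not a result about the blood cell markers. In the other knockouts 0 passed with limma (3 in neil1, 0 in neil3 and 1 in neil123 at an unadjusted p under 0.05), 0 with edgeR, and DESeq2 called 1 in neil1. The markers' medians were 0.03 in neil1, 0.10 in neil2, -0.02 in neil3 and 0.16 in neil123. Of the piRNA genes that work beside GTSF1 in the germ line, 15 of 21 were in the table and 5 were tested, and 0 passed in any knockout with limma or edgeR (medians of -0.04, -0.05, -0.01 and 0.13). At an unadjusted p under 0.05 limma had 0 in neil1, 2 in neil2, 0 in neil3 and 1 in neil123, and DESeq2 called 1 in neil2. The 1 endothelial marker tested, ESAM, did not pass in any knockout by any of the 3 tools, at an unadjusted p either.

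The genes whose levels most resembled those of a member were found by the same r over 42 libraries, which share lines and sets. For GTSF1 they were CROT (0.967), HAND2 (0.957) and CDKAL1 (0.939). CROT, a carnitine acyltransferase of peroxisomes, had 77.4 to 142 normalized reads in wt, 117 to 136 in neil1 line 12, 13.3 to 23.4 in neil1 line 13 and 0 to 3.89 in neil123. HAND2, a helix-loop-helix factor of heart and limb, had 16.3 to 38.7 in wt, 64.2 to 68.7 in neil1 line 12, 7.81 to 20.9 in neil1 line 13 and 0 to 2.09 in neil123. Both thus shared with GTSF1 the split between the lines of neil1. For KIT they were OSBPL10 (0.910), ABCB1 (0.910) and MATK (0.896), and for MYB SPOCK3 (0.909), LGSN (0.905) and MELK (0.891). ABCB1, a drug efflux pump, had 218 to 499.6 in wt and 0 to 28.0 in neil123. It was also low in part of the neil2 libraries, with 7.81 to 325 in media (median 22.3) and 4.94 to 328 under BSO (median 24.2).

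For TAL1 the nearest were ATL1 (0.899), NMI (0.886) and ATAD1 (0.879), and for LYL1 H2AJ (0.819), HOXD11 (0.818) and the noncoding RNA PURPL (0.812). H2AJ, a histone variant, had 272 to 293 normalized reads in neil3 line 1 and 1.98 to 7.25 in line 2, against 355 to 399 in lettered wt, a split between lines larger than that of LYL1. For GATA2 they were ZNF219 (0.777), ZNF598 (0.749) and ZNF787 (0.726), and for FLI1 SFRP1 (0.728), SEMA3D (0.699) and PYGL (0.697).

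Genes next to the members on the chromosome were examined too, the 2 nearest tested genes on each side, a choice made after the values were seen. Of 128 differences from wt under BSO, over 32 neighbours and 4 knockouts, 6 passed, and with 15.8% of all genes called in neil2 and 8.09% in neil123 this is not a result about the neighbours. Besides NFIX, ITGA5 and PDE1B, described next, they were PPP1R1A near GTSF1 (-0.79) and TMEM165 near KIT (0.24) in neil2 and ATPAF1 near TAL1 (0.13) in neil123. LYL1 (chr19:13099033-13102858) has NFIX 0.237 kb and TRMT1 2.05 kb away. In neil3, where LYL1 fell, neither passed (NFIX -0.17 ± 0.35 and TRMT1 -0.06 ± 0.07, both with an adjusted p of 1). NFIX, a nuclear factor I gene, fell in neil2 (-1.54 ± 0.40, 0.00863), where LYL1 did not, and its p was 0.563 without neil2 line 11 and 0.0527 without wt line p1. GTSF1 (chr12:54455957-54473602) has ITGA5 at 36.7 kb and PDE1B at 76.0 kb, and both fell in neil123 (-0.36 ± 0.10, 0.022, and -1.77 ± 0.57, 0.0481). Both calls ended with 1 mean per line (0.337 and 0.398) and without either wt line (0.148 to 0.279), and that of PDE1B also without either neil123 line (0.105 and 0.346) and with edgeR (0.0632). The ITGA5 call ended without neil123 line 2 (0.307). PDE1B rested on few reads, 3.13 to 8.04 in neil123 against 16.1 to 28.2 in lettered wt under BSO. Over both treatments it had 1.95 to 9.69 in neil2 line 11 and 45.5 to 57.5 in neil2 line 12. ETS1, 97.6 kb from FLI1 (chr11:128685132-128813267), did not pass in neil3 (-0.16 ± 0.33), nor did STIL, 17.8 kb from TAL1 (chr1:47216290-47232335), in neil2 (0.01 ± 0.05), nor PDGFRA, 359.7 kb from KIT (chr4:54657957-54740715), in neil123 (1.80 ± 0.72, 0.123). Coordinates are those of RefSeq on GRCh38.p14.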

How the data were processed

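RNA of 42 HAP1 libraries was measured by RNA-seq, from total RNA and standard Illumina libraries per the labels. Per the submitters' processing notes, the tools were Trim Galore, HISAT2, SAMtools, featureCounts and DESeq2 with GRCh38 (hg38); no source used here gives their versions or the strand setting, so reads of antisense partners cannot be told apart. The deposited unit is a signal, the read count per gene that the authors divided by size factors. All values (100%, relative tolerance 1e-06) were whole multiples of 1 read, worth 0.941 to 1.04. Entries without a symbol (9667 of 30182, 0.868 to 1.25% of reads) stayed out of the tests.

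Limma 3.58.1 (R 4.3.3) was fitted with an intensity trend to log2(value + 1) of 14331 genes with a symbol (mean at least 10), on all 42 libraries in cells of genotype, treatment and sample-name set, and called at a Benjamini-Hochberg adjusted p under 0.05 over all genes. Fold changes on this scale understate those of low genes. EdgeR 4.0.16 and DESeq2 1.42.0 on the recovered reads were alternatives, with other filters, pseudocounts, scalings and fits, and left-out libraries; leaving out whole lines was added after seeing the data. The scripts were tested on simulated data. The members and gene lists were chosen with earlier results of these data known. From each list at most 3 genes past the threshold with the largest change are named, and for each member the 3 genes with the highest r.

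Replicate names were taken to pair BSO with media libraries: over 21 pairs, deviations from the group means correlated at 0.375 to 0.849, and 21 of 21 BSO libraries lay closest to the media library of the same name. Blocked values stand beside the BSO results they change. The letters A and B were a separate block.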

Additional observations from a re-analysis of the deposited data

Results flagged for a closer look

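In 2 of the 48 groups of 4 or more libraries examined, 1 library lay far from the others of its group, and chance alone does this in about 1 in 20 groups. Both cases were library 1B of neil123 under BSO. GATA2 had 1759 normalized reads there, against 1931 to 1951 in the other 3 libraries. TAL1 had 1368 there, against 1515 to 1541 in the others. In media the same line's library 1B was also the lowest of the group for TAL1, at 1375.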

How the results depend on the processing

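Of 7 members, the count called between neil1 and wt under BSO was 0 and became 1 without line 12; leaving out 1 library gave 0 to 1. For neil2 it was 1, and became 2 without the set term or line 12 and 0 with only the groups compared or without wt line 1.3 (1 to 1 without 1 library). The member called was not always TAL1: without BSO library rep12 the TAL1 call was lost and another member passed. For neil3 it was 2, and became 1 with the line as a random block, 1 mean per line, only the groups compared, a pseudocount of 0.5, a filter of 50 (FLI1 not tested), no filter, or without neil3 line 1 or 2, and 0 without wt line 1.1 or 1.3 (1 to 2 without 1 library). For neil123 it was 4, and became 1 with 1 mean per line and 2 without line 1 (4 to 4 without 1 library). It was 3 with DESeq2, which gave no adjusted p for GTSF1. MYB also lost its call without wt line 1.1 or 1.3, and FLI1 was not tested with a filter of 50. Between BSO and media in wt it was 0 and became 1 with an additive set term, the line block, only the groups compared, a filter of 50, equal totals, edgeR or DESeq2 (0 to 1 without 1 library). With the replicate block it became 2 in wt, 2 in neil1, 2 in neil2, 3 in neil3 and 4 in neil123, and the block changed no other call. Between the wt sets it was 1, and became 2 with only the groups compared and 0 without line 1.3. The BSO change of TAL1 in neil2 turned to 0.061 without media library rep11.1 and 0.65 without BSO library rep12 (lowest -1.05 without 1 library), and that of KIT in neil123 to 0.023 without media library 1B (lowest -0.57). The cause was not tested. Over all genes the counts ranged with the setting from 1 to 119 in neil1 (29 as reported), 117 to 4287 in neil2 (2266), 7 to 196 in neil3 (58) and 126 to 1603 in neil123 (1160). For BSO against media they ranged from 434 to 5252 in wt (2243), 2 to 1581 in neil1 (185), 0 to 1213 in neil2 (25), 133 to 3438 in neil3 (952) and 21 to 1673 in neil123 (244). They ranged from 3722 to 7576 between the wt sets (6135), and for the differences in BSO change from 0 to 317, 0 to 1490, 0 to 0 and 0 to 5 in neil1, neil2, neil3 and neil123 (0 in each). Depth limits LMO2 and, in neil123, FLI1 and GTSF1, which rest on few reads.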

Other observations

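These values were chosen after they were seen and carry no test. CD34, a surface marker of blood progenitors, had 538 to 716 normalized reads in neil1 line 12, 46.8 to 78.1 in line 13 and 4.95 to 31.4 in wt. In neil2 it had 69.5 to 157 in line 11 and 15.6 to 19.3 in line 12, so in neil2 the line with less KIT and MYB had more CD34. In neil123 it went the other way for KIT. There CD34 had 23.8 to 45.8 in line 1 and 1.02 to 8.88 in line 2, the line with less KIT. ABL1 had 1089 to 1316 in neil123 and 701 to 865 in lettered wt. IRF8 split the lines of neil3 as it did those of neil2, with 6.99 to 13.11 in line 1 and 64.3 to 80.3 in line 2.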
